A study of Homo sapiens with 4 samples.

Results

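The centrosome and centriole genes examined here were protein-coding genes chosen by symbol. They comprised every gene named CEP followed by a digit, the HAUS subunits of augmin, the γ-tubulins, the TUBGCP genes of the γ-tubulin ring complex and the centrins, together with PLK4, STIL, SASS6, CENPJ (also called CPAP), PCM1, PCNT, CDK5RAP2 and NEDD1. The rule found 64 of the 64252 genes in the count table, and 62 of them were among the 18779 genes with enough reads to be tested. SK-N-BE(2), a human neuroblastoma cell line, was transfected with either a scramble shRNA (sh-Scb, the control) or an shRNA against SAPCD2 (sh-SAPCD2), a gene linked to spindle orientation and cell division. Each group held 2 mRNA libraries. According to the study's methods the lines were stable, made with lentivirus and selected with puromycin, with a hairpin in both groups. The labels do not name the hairpin used, and nothing in them says that the libraries of a group came from separate cultures, so the p-values measure the spread between these samples, which may be technical.

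The centrosome is built around a pair of centrioles, barrels of microtubules that are copied once in each cell cycle. The kinase PLK4, recruited by CEP152 and CEP192, drives STIL and SASS6 to form the cartwheel on which the new centriole grows. Around the centrioles lies the pericentriolar material, which holds the γ-tubulin ring complex that starts new microtubules. Augmin carries that complex to the sides of existing spindle microtubules. Transcripts of PLK4, STIL and SASS6 are known to rise in proliferating cells, and extra centrosomes are common in tumours.

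Values are CPM, read counts relative to the library total, after scaling by trimmed mean of M-values (TMM). Fold changes, standard errors (SE) and p-values come from edgeR's quasi-likelihood test over all 18779 genes, with Benjamini-Hochberg adjustment, and a gene was called at an adjusted p under 0.05. The library totals ran from 25347900 to 31850997 counts. SAPCD2 itself was at 83.6 and 82.2 CPM in the control libraries and at 35.4 and 52.5 CPM in the sh-SAPCD2 libraries, so the targeted gene was lower in both. Its log2 fold change was −0.91 (SE 0.193, adjusted p = 0.0206, edgeR). The neuroblastoma genes HAND2, GATA3, TH and DBH were all expressed, and the defining markers CD3E, LYZ, SOX10 and PRRX1 of immune, Schwann and fibroblast cells had no counts. The summed levels of the listed markers in the controls and after knockdown were 9.01 to 9.74 and 11.1 to 13 CPM for immune cells, 0.0727 to 0.471 and 0.987 to 1.03 CPM for endothelial cells, and 207 to 209 and 239 to 258 CPM (mostly PDGFRB) for fibroblasts. Among these markers CD68 and VWF were called higher, at 0.892 CPM or less, and their part in the results was not tested. In bulk RNA of this kind, fewer cells of one type or cell cycle stage and less RNA per cell cannot be told apart.

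Centrosome and centriole genes were lower in the sh-SAPCD2 cells more often than they were higher. Of the 62 tested members, 23 (37.1%) were called lower, against 12.5% of all tested genes. None was called higher by edgeR, against 12.4% of all tested genes. Only CEP120 and CEP170B were higher at an unadjusted p under 0.05 (2 members), and DESeq2 called 1 member higher, CEP120. The study's stricter thresholds, which also ask for an absolute log2 fold change over 1, were passed by 7 members, all lower (11.3%, against 5.15% of all genes), and by no member that was higher (background 4.69%). These were HAUS4, STIL, PLK4, CEP41, CEP152, CDK5RAP2 and CEP135. When tested against a log2 fold change of 1 itself, edgeR called no member after adjustment, and 4 passed at an unadjusted p under 0.05 (HAUS4, STIL, PLK4 and CEP41).

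The median log2 fold change over the tested members was −0.31, against 0.02 over all tested genes. It was below 0 for 53 members and above 0 for 9. In 45 members (72.6%) every sh-SAPCD2 library lay below every control library, which was so for 33.4% of all tested genes. In 6 members (9.68%) every sh-SAPCD2 library lay above the controls, against 33.5% of all genes. Measured against the control mean, the median member was at −0.337 (log2) in the first sh-SAPCD2 library and at −0.477 in the second, and the 23 lower members were at −0.664 and −1.04. The second library was thus further from the controls, although SAPCD2 was less reduced in it. The SAPCD2 transcript has a GC content of 66.5%, and the sh-SAPCD2 libraries differed from each other along GC content, as described below. Corrected for GC content and length, the log2 fold change of SAPCD2 over both libraries was −1.33 (adjusted p = 1.15e-05, edgeR). The part of GC content in this contrast was not tested. CETN1, a centrin of the testis, had 0 counts in all 4 libraries, and CEP295NL had 6 to 25, so neither was tested.

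**Figure D1:**
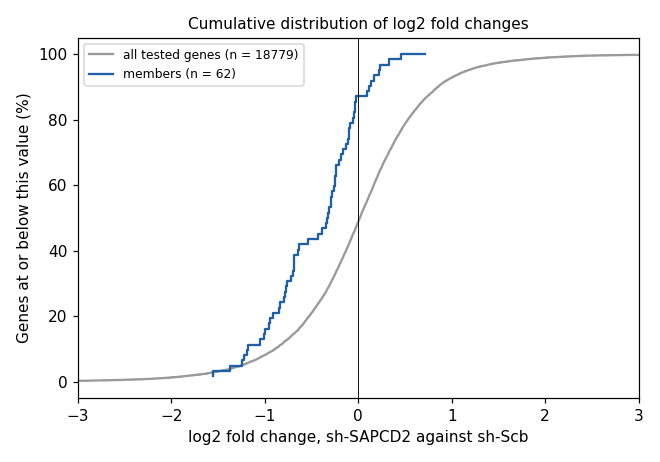
Cumulative percentage of genes (vertical axis) at or below each log2 fold change of sh-SAPCD2 against sh-Scb (horizontal axis), for all 18779 tested genes (grey) and the 62 tested members (blue). The curve of the members lies to the left, with its median at −0.31 against 0.02.

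The core of centriole duplication had the highest share of lower genes among the role groups of more than 1 gene. The role groups were drawn up with earlier results of these data known, so their order is a description and not a test. Of its 10 members, 8 were called lower, against 12.5% of all tested genes. The other 2 lay below 0, and the median log2 fold change was −0.78. PLK4, the kinase that starts duplication, was at 64.3 and 62.1 CPM in the controls and at 30.4 and 23 CPM in the sh-SAPCD2 libraries. STIL, its substrate and partner, was at 48.3 and 48.8 CPM in the controls and at 21.3 and 16.4 CPM after knockdown. SASS6, the protein of the cartwheel spokes, went from 34.9 and 39.6 CPM to 24.1 and 14.6 CPM. In all 3 every sh-SAPCD2 library lay below every control library, which was so for 33.4% of all tested genes. The second sh-SAPCD2 library was the lowest each time. It was below the first in 45 of the 46 members with a GC content of 50% or less, these 3 among them. The log2 fold changes were −1.24 for PLK4 (SE 0.163, adjusted p = 0.00573, edgeR), −1.37 for STIL (SE 0.163, adjusted p = 0.00456) and −0.95 for SASS6 (SE 0.243, adjusted p = 0.0362), which left 42.3%, 38.8% and 52% of the control level.

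The receptors of PLK4 moved the same way. CEP152 was measured at 85.7 and 85.2 CPM in the controls and at 44.9 and 29.9 CPM in the sh-SAPCD2 libraries, a log2 fold change of −1.19 (SE 0.198, adjusted p = 0.0105, edgeR). CEP192, which also recruits pericentriolar material before mitosis, was at 40.6 and 42.8 CPM and then at 27.3 and 21.1 CPM (log2 fold change −0.79, SE 0.161, adjusted p = 0.019, edgeR). CENPJ, which sets the length of the growing centriole, fell from 32.9 and 37.9 CPM to 24 and 17.8 CPM (−0.76, SE 0.183, adjusted p = 0.03, edgeR). In each of these genes every sh-SAPCD2 library lay below every control library, as in 33.4% of all tested genes. CEP85, a STIL partner, and CEP57L1 were lower as well, at log2 fold changes of −0.78 and −0.69 (adjusted p = 0.00722 and 0.0317, edgeR). CEP63, the partner of CEP152, was the least changed of the core, at 19.2 and 22.7 CPM against 18.8 and 16.7 CPM (−0.24, SE 0.156, adjusted p = 0.302, edgeR) and CEP57 was at −0.29 (adjusted p = 0.162, edgeR).

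**Figure D2:**
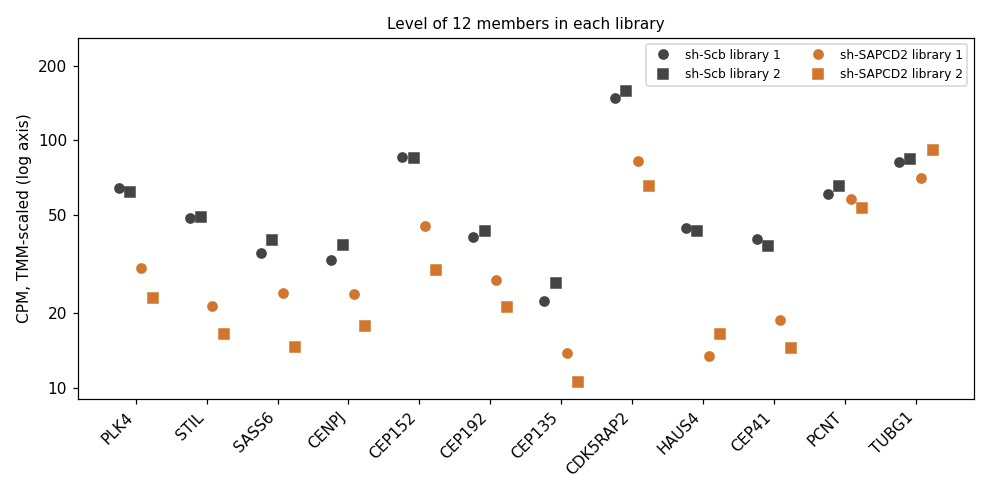
Level of 12 members in each library, as TMM-scaled CPM on a log axis. Grey symbols are the 2 sh-Scb libraries, orange symbols the 2 sh-SAPCD2 libraries, with circles for library 1 and squares for library 2. The groups are apart in every gene shown except TUBG1. Over all tested genes the sh-SAPCD2 libraries lay below the controls in 33.4% and above them in 33.5%.

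Promoter sequences are shown for the members past the stricter thresholds that held a cell cycle motif. Transcription of such genes is known to be timed by E2F factors and by the DREAM and MuvB complexes, which bind the cell cycle genes homology region (CHR). HAUS4, with the largest change of all members, and CEP41 were also past these thresholds. Their promoters held neither an E2F nor a CHR motif and are not shown. The windows are those of RefSeq (GRCh38.p14), 300 bases from 250 before to 50 after the annotated start, printed along the strand of the gene. They lie at chr4:127880643-127880942 (plus strand) for PLK4, chr15:48811020-48811319 (minus strand) for CEP152, chr4:55948695-55948994 (plus strand) for CEP135, chr9:120580118-120580417 (minus strand) for CDK5RAP2 and chr1:47314098-47314397 (minus strand) for STIL. Capitals mark a CHR word on either strand in the first 4 and an E2F word in STIL.
PLK4: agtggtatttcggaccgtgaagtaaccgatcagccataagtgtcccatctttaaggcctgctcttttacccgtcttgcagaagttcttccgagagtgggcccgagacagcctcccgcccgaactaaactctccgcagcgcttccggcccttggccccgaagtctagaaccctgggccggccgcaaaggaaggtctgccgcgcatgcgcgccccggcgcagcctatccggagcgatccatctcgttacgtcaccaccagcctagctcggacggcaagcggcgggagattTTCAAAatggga
CEP152: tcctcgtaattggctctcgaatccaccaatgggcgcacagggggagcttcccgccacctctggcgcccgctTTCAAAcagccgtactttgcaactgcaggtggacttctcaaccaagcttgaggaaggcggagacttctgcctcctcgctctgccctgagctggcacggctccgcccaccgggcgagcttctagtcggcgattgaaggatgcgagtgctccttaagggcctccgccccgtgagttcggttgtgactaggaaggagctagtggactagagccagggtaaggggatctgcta
CEP135: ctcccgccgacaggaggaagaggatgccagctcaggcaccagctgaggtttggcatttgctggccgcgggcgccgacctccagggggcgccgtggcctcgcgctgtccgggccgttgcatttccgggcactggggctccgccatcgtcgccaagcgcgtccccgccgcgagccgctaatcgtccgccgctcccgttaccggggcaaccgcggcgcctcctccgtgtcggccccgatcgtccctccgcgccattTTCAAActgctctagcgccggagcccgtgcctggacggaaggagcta
CDK5RAP2: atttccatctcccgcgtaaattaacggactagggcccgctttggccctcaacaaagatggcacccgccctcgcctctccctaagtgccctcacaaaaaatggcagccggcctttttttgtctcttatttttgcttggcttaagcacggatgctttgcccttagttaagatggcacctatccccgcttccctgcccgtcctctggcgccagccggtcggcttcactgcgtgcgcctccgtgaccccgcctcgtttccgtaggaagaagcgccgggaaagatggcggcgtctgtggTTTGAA
STIL: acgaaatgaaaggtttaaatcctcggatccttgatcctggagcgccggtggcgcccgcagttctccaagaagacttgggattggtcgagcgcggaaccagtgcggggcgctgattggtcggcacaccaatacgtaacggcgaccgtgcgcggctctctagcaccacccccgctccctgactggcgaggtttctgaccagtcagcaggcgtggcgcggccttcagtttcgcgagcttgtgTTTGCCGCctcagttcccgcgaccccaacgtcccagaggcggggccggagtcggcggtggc

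The CHR words searched were TTTGAA and TTCGAA, and the E2F words were TTTCCCGC, TTTCGCGC, TTTGCCGC and TTTGGCGC, on both strands and with no overlap between the motifs in these windows. A window was given for 56 members. A CHR word stood in 14 of them (25%), in 8 of the 21 lower members with a window (38.1%) and in 6 of the 34 tested members that were not called (17.6%). The share was 13.4% for the promoters of all protein-coding genes of the table and 11.1% for those that were tested. The 8 lower members were PLK4, CEP152, CEP192, CEP135, CEP295, CEP44, CDK5RAP2 and CEP55. An E2F word stood in 9 members (16.1%), among them the lower genes STIL, SASS6, CEP192 and CEP68 (4 of 21, or 19%), and in 14.7% of those not called. The share was 4.57% for all protein-coding genes and 5.35% for those that were tested. The CCAAT box, a common promoter element, was about as frequent in members (42.9%) as in all genes (36.7%). These are matches of letters and not measured binding.

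Genes of centriole elongation, capping and the distal end were split. Of the 11 tested, 4 were lower, against 12.5% of all tested genes. The log2 fold change was below 0 for 8 and above 0 for 3, with a median of −0.43. CEP135, which joins the cartwheel to the centriole wall, was at 22.3 and 26.5 CPM in the controls and at 13.8 and 10.5 CPM in the sh-SAPCD2 libraries (log2 fold change −1.01, SE 0.189, adjusted p = 0.0148, edgeR). CEP78, CEP295 and CEP44 were lower by log2 fold changes of −0.96, −0.84 and −0.70 (adjusted p = 0.00463, 0.0224 and 0.0103, edgeR). CEP295 and CEP44 are known for the step that turns a new centriole into one able to form a centrosome, and CEP44 had the highest CPM of all members (692 and 671 in the controls). The centrins CETN2 and CETN3 were at −0.16 and −0.25 and were not called.

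At the other end of this group, CEP120 was the gene with the largest rise. It was at 36.9 and 37.5 CPM in the controls and at 57.2 and 45.2 CPM in the sh-SAPCD2 libraries, so the groups did not overlap. The log2 fold change of 0.46 (SE 0.15) missed the threshold (adjusted p = 0.0714, edgeR). CEP120 promotes elongation together with CENPJ, which was lower. CEP97, which caps the growing end, was at 0.22 (adjusted p = 0.313, edgeR).

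Among the 12 genes of appendages, linker and cilium gate, 2 were lower, and the median was −0.25. That share is near the 12.5% of all tested genes. CEP128, a part of the subdistal appendages, was at 18.7 and 23.4 CPM in the controls and at 11.8 and 9.36 CPM after knockdown, or 50.2% of the control level (SE 0.193 on the log2 scale, adjusted p = 0.016, edgeR). CEP68, a part of the linker that ties the 2 centrioles together, had a log2 fold change of −0.91 (SE 0.112, adjusted p = 0.00487, edgeR). The distal appendage genes CEP164, CEP89 and CEP83 were at −0.26, −0.25 and −0.10, and the linker scaffold CEP250 was at −0.04, none of them called. CEP290, of the cilium gate, was at −0.39 (adjusted p = 0.182, edgeR). CEP170B had the largest rise of the group and of all members on the log2 scale, from 6.23 and 5.67 CPM to 8.22 and 11.3 CPM (0.71, SE 0.218, adjusted p = 0.0595, edgeR). Its transcript is the richest in G and C of all tested members (66.3%), and with a correction for GC content and length its log2 fold change was 0.35 (adjusted p = 0.108, edgeR).

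In the pericentriolar material 2 of 6 genes were lower, with a median of −0.19, and 12.5% of all tested genes were lower. CDK5RAP2, which activates the γ-tubulin ring complex, was at 148 and 158 CPM in the controls and at 82.3 and 65.4 CPM after knockdown (log2 fold change −1.05, SE 0.138, adjusted p = 0.00581, edgeR). PCM1, the scaffold of centriolar satellites, was at 474 and 476 CPM and then at 339 and 251 CPM (−0.69, SE 0.153, adjusted p = 0.0239, edgeR). PCNT, the large scaffold that CDK5RAP2 binds, was at 60.9 and 65.3 CPM against 58 and 53.4 CPM. Its libraries were also apart by group, but the log2 fold change of −0.18 (SE 0.115) was not called (adjusted p = 0.295, edgeR). The satellite genes CEP72, CEP131 and CEP20 were at −0.21, −0.09 and −0.06.

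Subunits of the γ-tubulin ring complex did not change by the same amount. TUBG1, which encodes the main γ-tubulin, was at 81.8 and 84 CPM in the controls and at 70.2 and 91.4 CPM in the sh-SAPCD2 libraries. TUBG2 was at 16.4 CPM in both controls and at 14.7 and 20 CPM after knockdown. In both genes the controls lay between the sh-SAPCD2 libraries, with log2 fold changes of −0.04 (SE 0.148) and 0.09 (SE 0.185), and these paralogues are so alike that reads may be split between them. NEDD1, the adaptor that brings the complex to the centrosome and to augmin, went from 41.9 and 45.3 CPM to 30.9 and 25 CPM (−0.64, SE 0.151, adjusted p = 0.028, edgeR). TUBGCP5, a subunit found in the ring in few copies, was at −0.77 (SE 0.179, adjusted p = 0.0278, edgeR).

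The core subunits TUBGCP2 and TUBGCP3 were at −0.02 and −0.29, and TUBGCP4 was at −0.32, none of them called. TUBGCP6 had the largest rise of the group, from 43.5 and 44.2 CPM to 48.9 and 61.3 CPM (0.33, SE 0.144, adjusted p = 0.145, edgeR). Per kilobase of transcript, TUBG1 was the most abundant member of the complex in the controls (51.5 CPM per kb). The ring subunits and NEDD1 followed at 7.23 to 14.9 CPM per kb, with TUBGCP6 the lowest and TUBGCP3 the highest. In the sh-SAPCD2 cells TUBG1 was at 50.3 CPM per kb, while TUBGCP5 was at 4.79 against 8.14 CPM per kb in the controls.

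**Figure D3:**
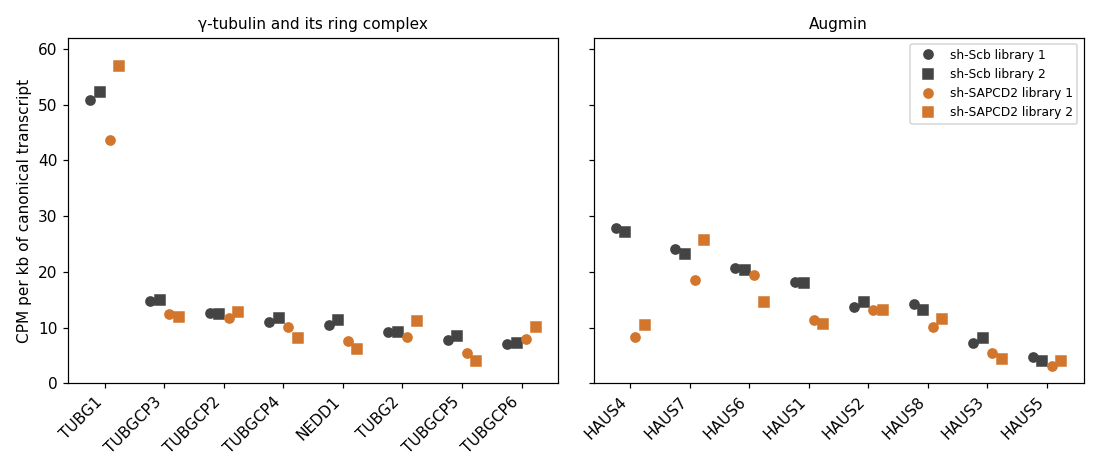
CPM per kb of canonical transcript in each library (grey, sh-Scb; orange, sh-SAPCD2; circles, library 1; squares, library 2) for the γ-tubulin ring complex (left) and augmin (right), ordered by the control mean. HAUS4 is the highest augmin gene in the controls, at 27.5 CPM per kb on average, and averages 9.39 CPM per kb in the sh-SAPCD2 libraries.

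Augmin works as a complex of 8 subunits in equal number, and 3 of its 8 genes were called lower, against 12.5% of all tested genes. HAUS4 had the largest change of all members. It was at 44 and 43.1 CPM in the controls and at 13.4 and 16.4 CPM in the sh-SAPCD2 libraries, which is 34.2% of the control level (log2 fold change −1.55, SE 0.152, adjusted p = 0.00321, edgeR). HAUS4 was the only one of the 3 lower augmin genes in which the second sh-SAPCD2 library was not the lowest. HAUS1 went from 19.5 and 19.4 CPM to 12.2 and 11.4 CPM (−0.72, SE 0.143, adjusted p = 0.0174, edgeR). HAUS3 went from 43.1 and 47.5 CPM to 32.1 and 25.8 CPM (−0.65, SE 0.153, adjusted p = 0.0287, edgeR). HAUS3 overlaps POLN on the same strand, so reads of the 2 genes may be mixed. The same may hold for HAUS4, which overlaps a gene without a symbol on the same strand and PRMT5-DT on the other.

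The other 5 augmin genes lay below 0 and were not called. HAUS2 was at 53.7 and 57.5 CPM in the controls and at 51.9 and 51.4 CPM after knockdown (log2 fold change −0.11). HAUS5 was at 20.8 and 17.8 CPM and then at 13.4 and 17.8 CPM (−0.31), and HAUS6, which binds NEDD1, at 132 and 129 CPM and then at 123 and 92.5 CPM (−0.28). In these 3 genes no sh-SAPCD2 library lay above a control. Every sh-SAPCD2 library lay below every control in 33.4% of all tested genes. HAUS7 was at 31.4 and 30.3 CPM and then at 24.1 and 33.6 CPM (−0.10), with the groups overlapping. HAUS8, which binds microtubules, was at 20.1 and 18.6 CPM and then at 14.1 and 16.2 CPM (−0.35), and the adjusted p-values of the 5 genes ran from 0.141 for HAUS8 to 0.733 for HAUS7 (edgeR). In the controls HAUS4 was the most abundant augmin transcript per length (27.5 CPM per kb) and HAUS5 the least (4.46 CPM per kb). In the sh-SAPCD2 cells HAUS4 was at 9.39 CPM per kb, below HAUS7, HAUS6, HAUS2, HAUS1 and HAUS8, although its libraries and those of HAUS8 and HAUS1 were close.

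HAUS4 also held a match to the hairpin. The study's supplement lists a hairpin named sh-SAPCD2 #1, and the study's heat map names that hairpin over its RNA-seq columns. Its guide strand has 21 bases, shown with the seed (bases 2 to 8) in capitals, and the 30 bases around the match in the 3′ UTR of HAUS4 (hg38, chr14:22946437-22946466, minus strand) are shown with the complement of the seed in capitals.
guide of sh-SAPCD2 #1: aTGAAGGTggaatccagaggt
HAUS4: ctagtgggaccACCTTCAcctggggctgcc
The 3′ UTR of HAUS4 is 297 bases long. The same 7 letters were in the 3′ UTR of 6 of the 23 lower members (26.1%), including CEP41, and of 6 of the 39 members not called (15.4%), against 12.5% of tested protein-coding genes. STIL and PLK4 had no such match. The part of the hairpin in the change of HAUS4 was not tested.

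CEP55, which despite its name acts at the midbody in the last step of cell division, was at 85.4 and 89.3 CPM in the controls and at 59.1 and 37.9 CPM in the sh-SAPCD2 libraries (log2 fold change −0.85, SE 0.21, adjusted p = 0.0322, edgeR). Among the remaining CEP genes 1 of 6 was lower, a share near the 12.5% of all tested genes. CEP41, a gene of cilia linked to tubulin glutamylation, was at 39.8 and 37.3 CPM and then at 18.7 and 14.4 CPM (−1.22, SE 0.168, adjusted p = 0.00615, edgeR). CEP112 had a similar log2 fold change of −1.18 but only 1.09 and 2.18 CPM in the controls, with an SE of 0.454 (adjusted p = 0.108, edgeR). CEP85L had the largest rise of this group, from 18 and 20.4 CPM to 25.2 and 19.8 CPM, and its groups overlapped (0.23, SE 0.171, adjusted p = 0.364, edgeR).

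**Figure D4:**
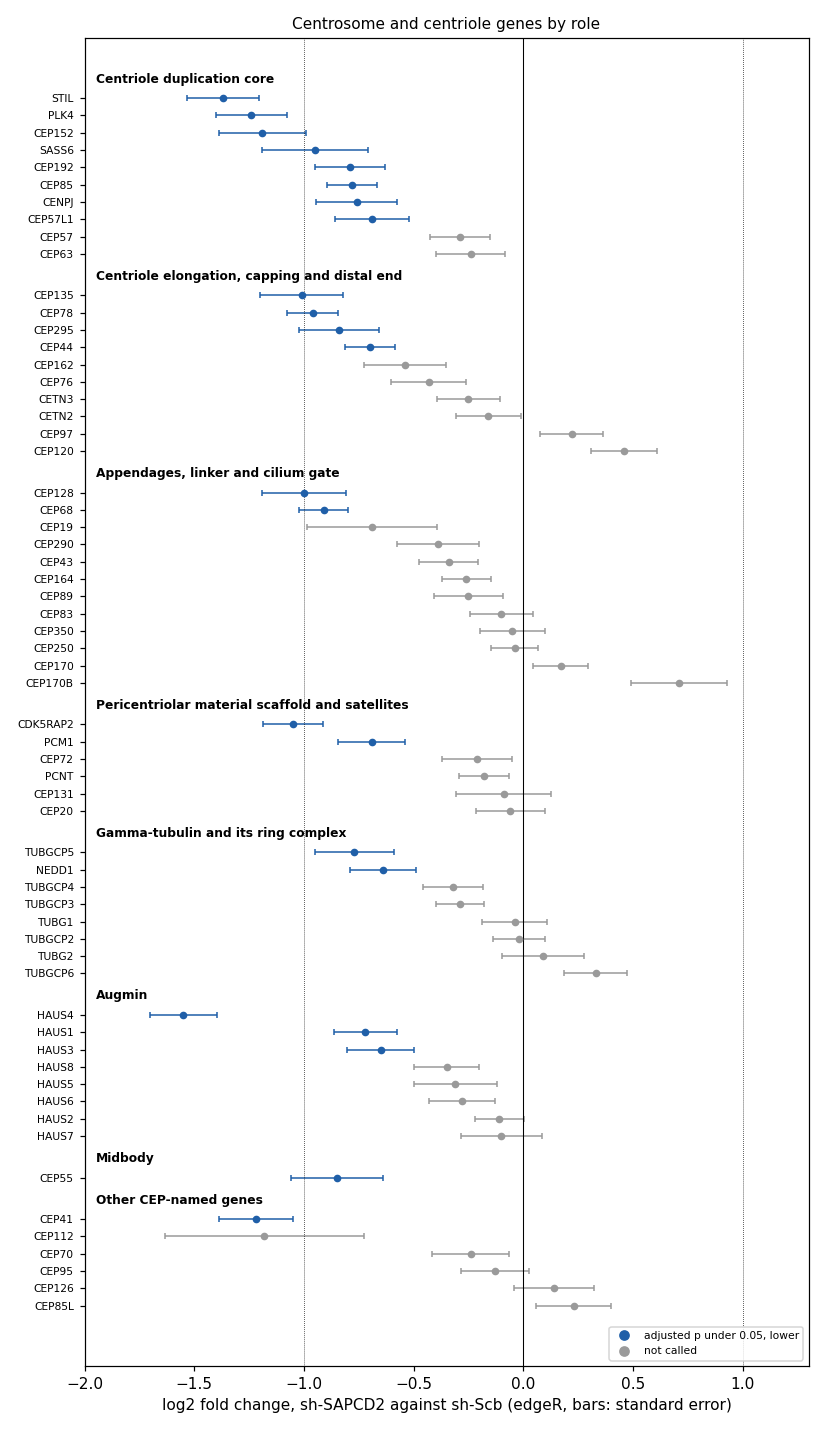
Log2 fold change of sh-SAPCD2 against sh-Scb for 61 of the 62 tested members, sorted within 8 groups by role, with bars for the standard error (edgeR). Blue marks the 23 members called lower, grey the rest, and dotted lines stand at −1 and 1. Among the groups of more than 1 gene, drawn up with earlier results of these data known, the duplication core has the lowest median. CEP170B and CEP120 lie furthest to the right.

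A further 72 genes of the centrosome and its satellites that the symbols do not cover were listed by name. Of these 21 were lower and 4 higher, with a median log2 fold change of −0.32. Of all tested genes 12.5% were lower and 12.4% higher. With the GC and length correction 31 of the 72 were lower and 10 higher, with a median of −0.28. With that correction 22% of all genes were lower and 21% higher. The 5 with the smallest p were all lower. They were C2CD3, needed for the distal end of the centriole, at −1.07 (adjusted p = 0.00438, edgeR), the distal appendage gene FBF1 at −1.38, the kinesin KIF24 at −1.33, CCDC15 at −1.46 and LRRCC1 at −1.47. The 4 higher genes, named after their values were seen, were TACC1, TRIM37, FBXW5 and NEURL4, at 0.80, 0.55, 0.90 and 0.59 (adjusted p = 0.0136, 0.0203, 0.0301 and 0.0373, edgeR). TRIM37 and FBXW5 belong to ubiquitin ligases that are known to limit centrosome proteins, FBXW5 acting on SASS6, and NEURL4 is known to keep the capping protein CP110 low. With the correction TACC1 was at 0.84, TRIM37 at 0.61, FBXW5 at 0.47 and NEURL4 at 0.38.

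Proliferation genes moved with the members. All 14 listed markers were lower, with a median log2 fold change of −1.05 against −0.78 for the duplication core. Their summed level was 3783 and 3833 CPM in the controls and 1909 and 1695 CPM in the sh-SAPCD2 libraries. PCNA was at 45.2% of the control level, TOP2A at 37.9%, RRM2 at 47.8%, MCM6 at 48.7% and CDK1 at 48%. The part of a smaller share of cycling cells in the change of the centrosome genes was not tested.

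Base composition also moved with the result. Over all tested genes, the second sh-SAPCD2 library was below the first by a median of −0.256 (log2) among the 20% of genes with the lowest GC content and above it by 0.41 among the 20% with the highest, while the control libraries differed by at most 0.0162. Of the 46 members with a GC content of 50% or less, 45 were lower in the second sh-SAPCD2 library than in the first (median −0.34), and of the 16 with more, 12 were higher (median 0.25). The lower members had a median GC content of 40.4%, against 43% for those not called and 48.5% for all genes.

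After GC content and transcript length were corrected for, 36 members were lower (58.1%, against 22% of the 17467 genes with both values) and 4 were higher (6.45%, against 21%), with a median of −0.34. HAUS4, STIL and PLK4 were then at −1.59, −1.30 and −1.15. The 13 added to the lower genes included PCNT (−0.27), TUBG1 (−0.21), TUBGCP3 (−0.23), HAUS6 (−0.20), HAUS7 (−0.35) and HAUS8 (−0.43). The 4 higher genes were CEP120 (0.53, adjusted p = 0.00137, edgeR), CEP97 (0.29), CEP170 (0.23) and CEP85L (0.30).

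**Figure D5:**
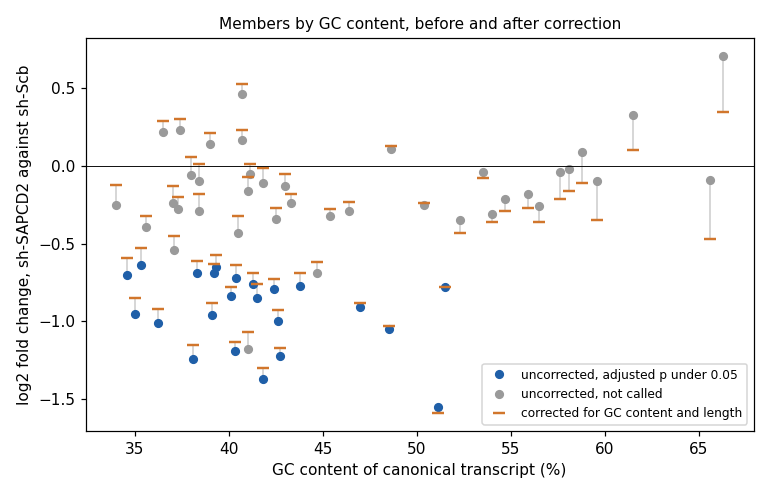
Log2 fold change of the 62 tested members against the GC content of their canonical transcript (%), uncorrected (circles, blue if called lower) and corrected for GC content and length (orange dashes, joined by a grey line). The correction raised all 46 members with a GC content of 50% or less and lowered 14 of the 16 with more, CEP170B from 0.71 to 0.35.

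Single libraries changed some of these calls. Leaving out a library left 1 in its group, which was assumed to vary like the other group. The spread then came from the control libraries alone, which were close to each other (chi-square per gene 4.47), or from the sh-SAPCD2 libraries alone, which were further apart (38.6), and the calls over the whole table moved with it. Without sh-Scb replicate 1, 16 members were lower (6.29% of all tested genes were), and CEP85, CEP57L1, CEP44, PCM1, TUBGCP5, NEDD1, HAUS1 and HAUS3 lost their call. Without sh-Scb replicate 2, 13 were lower (6.25% of all genes), and CEP192, CENPJ, CEP57L1, CEP44, CEP128, PCM1, TUBGCP5, NEDD1, HAUS1 and HAUS3 lost it. Without sh-SAPCD2 replicate 1 there were 36 lower and 3 higher members (CEP120, CEP170B and TUBGCP6), against 22.6% and 23.3% of all genes. Without sh-SAPCD2 replicate 2 there were 31 lower and 3 higher (CEP120, CEP170 and CEP97), against 19% of all genes in each direction. STIL, PLK4, CEP152, CEP78, CEP68, CDK5RAP2, HAUS4 and CEP41 were called lower in all 13 fits that were run with the threshold at 0, of which 4 had a library left out.

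The library kit does not mark strand, so reads from bases that overlapping genes share cannot be assigned by strand. Of the members, 42 overlap another annotated gene of the table, small RNA genes and pseudogenes included. Overlap was taken from the annotated gene positions, and whether exons were shared was not tested. Among the 21 tested members that overlap none, 11 were lower, with a median log2 fold change of −0.64. Among the 41 that do, 12 were lower, with a median of −0.28. For comparison, 12.5% of all tested genes were lower. STIL, CEP135, CDK5RAP2 and CEP41 overlap no other gene.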

How the data were processed

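Libraries were made from total RNA with the Illumina TruSeq RNA kit and sequenced as paired ends. The authors deposited a table of raw read counts per gene for 4 libraries of SK-N-BE(2) cells, 2 with scramble shRNA and 2 with sh-SAPCD2. HISAT2 2.2.0 and hg38 are credited to the submitters' processing notes, and the study's methods name StringTie. The counting setting for strand is not given in the sources used here. Genes were joined by Ensembl ID to GENCODE 44. The counts were filtered with filterByExpr (minimum count 10, minimum total 15), scaled by TMM and tested with edgeR 4.0.16 in R 4.3.3 (quasi-likelihood test, two-sided, group only), with Benjamini-Hochberg adjustment over 18779 genes. At these depths 3 counts equal 0.0955 to 0.119 CPM. For genes with many reads the spread between libraries (biological coefficient of variation 15.4%) sets the precision. Count error adds to it in genes with few reads, such as CEP112 (16 to 60 counts). DESeq2 1.42.0, other scalings and filters, a loess correction for GC content and length of the canonical transcript, the replicate number as a block and each library left out were tried as alternatives. The scripts were tested on simulated data. A log2 change of 1 was recovered in 50 of 100 genes, and a change of 2 in 86 of 100. A member that was not called may therefore still have changed.

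The members, role groups, marker lists and promoter motifs were chosen with earlier results of these data known. Every member could be named. Values in every library were given for members past the study's thresholds, for the main duplication, scaffold, γ-tubulin and augmin genes, for CEP55 and for the largest rise of each role group, and up to 5 genes of smallest p for the companion and proliferation lists. Promoter windows are from RefSeq (GRCh38.p14). Of the 64 members, 56 had one. A few genes enter the counts and medians but are not reported here by name.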

Additional observations from a re-analysis of the deposited data

How the results depend on the processing

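The count of members called lower was 23 with edgeR and TMM, and also with DESeq2, with its size factors, with library totals and with a filter at a mean of 1 CPM. It was 11 with no filter on low counts and 36 with the GC and length correction, and leaving out each library in turn gave 13 to 36. Members called higher numbered 0 with edgeR, 1 with DESeq2 (CEP120), 4 with the GC and length correction and 0 to 3 with a library left out. Past the stricter thresholds there were 7 lower members, 0 when tested against a log2 fold change of 1, and 4 to 14 with a library left out. The median log2 fold change of the members, −0.31, ran from −0.49 to −0.30 with a library left out. Over the whole table, 2339 genes were lower and 2326 higher. These counts were 1180 and 1081 with no filter, 3846 and 3674 with the GC and length correction, and 1174 to 4239 and 1184 to 4376 with a library left out. The causes were not tested.

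The replicate numbers are shared by both groups, but same-numbered libraries did not deviate together (correlation −0.0188 across genes), so they share only a number. With the replicate block 24 members were lower and 1 higher (CEP170B), and 2701 and 2860 genes of the whole table. With the block and the GC and length correction together, 34 members were lower and 3 higher, and 3913 and 3755 genes of the whole table.

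Of the 23 lower members, 8 were called in all 13 fits, and none rose above −0.49 in any of them. With no filter 12 lost their call. None of the members whose direction reversed was called with edgeR and TMM, while CEP131, TUBG1 and HAUS7 were called lower with the GC and length correction. With the GC and length correction, with or without the block, CEP83 and CEP350 were at 0.01, CEP20 at 0.06 and TUBG2 at −0.11. With a library left out, CEP83 ran from −0.25 to 0.02, CEP350 from −0.28 to 0.13, CEP20 from −0.26 to 0.10, CEP95 from −0.36 to 0.06, CEP131 from −0.43 to 0.17, TUBG1 from −0.24 to 0.13, TUBGCP2 from −0.09 to 0.03, HAUS7 from −0.36 to 0.10, TUBG2 from −0.15 to 0.27 and CEP126 from −0.08 to 0.33, the ends being the fits without one or the other sh-SAPCD2 library. The calls rest on 2 libraries in each group, and with one left out the spread comes from the other group alone.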
